A study of Mus musculus with 12 samples.

Results

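The cytosolic sulfotransferases were followed in mouse liver through 9 genes, Sult1a1, Sult1b1, Sult1c2, Sult1d1, Sult1e1, Sult2a1, Sult2a8, Sult3a1 and Sult5a1. They were picked by gene name, with no threshold on a measured value, from the 48526 genes of the deposited CPM table (CPM being the reads of a gene scaled to the total of its library). Of the 9 genes, 8 were among the 11968 genes that passed the authors' filter of more than 1 CPM in at least 6 livers. Sult1e1 was below it and is given by its level and by a fit without a filter. The livers were from C57BL/6J mice, an inbred laboratory strain, and whole liver was taken, so that fewer cells of a type and less RNA per cell cannot be told apart. There were 4 groups of 3 livers, each from a different mouse: females on chow, females on chow containing simvastatin, males on chow and males on chow containing simvastatin. Simvastatin, an inhibitor of the cholesterol-synthesis enzyme HMG-CoA reductase, was given at 0.1 g/kg for 4 weeks from the age of 10 weeks. The labels relate this dose to body weight and the methods of the study to food, and all mice carried the same wild-type background with no engineered allele named.

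Sulfotransferases move a sulfonate group from the donor PAPS onto hydroxyl or amino groups of hormones, bile acids, neurotransmitters and drugs, which as a rule makes them more water-soluble and easier to excrete. Enzymes of the Sult1 class act mostly on phenols, among them estrogens, catecholamines and thyroid hormones, while those of the Sult2 class act on hydroxysteroids and bile acids. In rodents the liver is a main site of this reaction, and several members of the family are known for differing between the sexes.

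The 9 genes are spread over 5 chromosomes (positions in build GRCm38). Sult1b1 (chr5:87513339-87538195), Sult1d1 (chr5:87554645-87569027) and Sult1e1 (chr5:87575969-87591594) stand side by side on the minus strand of chromosome 5. Sult1a1 (chr7:126672865-126676432), Sult2a1 (chr7:13796246-13837409) and Sult2a8 (chr7:14410686-14446769) are on the minus strand of chromosome 7, the latter pair within a cluster of 8 Sult2a genes. Sult1c2 (chr17:53829637-53846339) and Sult5a1 (chr8:123140192-123158315) are on the minus strand and Sult3a1 (chr10:33857721-33879532) on the plus strand. On the opposite strand Sult1a1 overlaps Sgf29, Sult3a1 overlaps Gm47935 and Sult5a1 overlaps Gm20388, and on its own strand Sult2a1 overlaps the pseudogene Kat6b-ps2. The libraries kept the strand, but the handling of strand in the counting is not given in the sources used here, and without it the reads of opposite genes cannot be told apart.

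How alike the genes are bears on how well their reads can be told apart. Across the coding sequence, Sult2a1 was identical to Sult2a2 at 97.9% of aligned bases, to Sult2a5 at 94.9%, to Sult2a3 at 93.7%, to Sult2a7 at 81.6% and to Sult2a8 at 70.4%. The coding bases 427 to 486 of 5 genes of the cluster (424 to 483 in Sult2a7) are shown as an example, because the levels of Sult2a1 and Sult2a8 in the sexes differed in opposite directions and the stretch shows how far their sequences are apart. They were read from the annotated transcripts of GENCODE vM21, 5′ to 3′, and capitals mark the bases that differ from Sult2a1.
Sult2a1: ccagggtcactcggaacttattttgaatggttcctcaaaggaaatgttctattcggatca
Sult2a3: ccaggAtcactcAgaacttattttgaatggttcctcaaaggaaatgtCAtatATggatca
Sult2a5: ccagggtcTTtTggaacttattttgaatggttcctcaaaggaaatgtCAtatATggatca
Sult2a7: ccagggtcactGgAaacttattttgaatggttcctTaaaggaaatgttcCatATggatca
Sult2a8: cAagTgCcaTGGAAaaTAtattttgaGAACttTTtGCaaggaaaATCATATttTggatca
Within these 60 bases Sult2a8 differed from Sult2a1 at 26 positions, Sult2a5 at 7, and Sult2a3 and Sult2a7 at 6 each. Of all stretches of 50 bases in the exons of Sult2a1, the length of a read, 66.8% occurred in no other gene and 29.5% were shared with Sult2a2, so reads could have been split between Sult2a1 and Sult2a2. For Sult2a8 98.0% occurred in no other gene, for Sult3a1 93.8% (6.15% shared with its paralog Sult3a2), for Sult1a1 92.6% (6.58% shared with Gm6939), and for the other 5 members between 98.5% and 100%.

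The 250 bases before the start site are shown for Sult3a1, Sult2a8 and Sult1e1, which differed between the sexes in both diets, have an entry in the promoter table (RefSeq, build GRCm38.p6) and hold a match to a motif searched. Of the 9 members 8 had an entry, and Sult2a1 had none; Sult5a1, which also differed in both diets, had an entry with no match and is not shown. The sequences run 5′ to 3′ on the strand of the gene. Capitals mark matches, on either strand, to TTCNNNGAA, the form of a STAT5 site, to AGGTCA, the half-site of many nuclear receptors, and to CAAAG, a part of HNF4-type sites.
Sult3a1 promoter, chr10:33857472-33857721, plus strand: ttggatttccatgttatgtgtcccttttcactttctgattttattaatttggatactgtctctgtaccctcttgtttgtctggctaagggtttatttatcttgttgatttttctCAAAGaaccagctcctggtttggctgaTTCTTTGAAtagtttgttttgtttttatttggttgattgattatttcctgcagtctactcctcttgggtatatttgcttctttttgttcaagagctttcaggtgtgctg
Sult2a8 promoter, chr7:14446588-14446837, minus strand: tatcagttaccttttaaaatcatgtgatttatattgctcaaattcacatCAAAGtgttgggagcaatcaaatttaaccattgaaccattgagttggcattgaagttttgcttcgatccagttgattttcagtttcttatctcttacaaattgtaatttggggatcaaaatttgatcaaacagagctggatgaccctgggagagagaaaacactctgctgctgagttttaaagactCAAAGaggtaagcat
Sult1e1 promoter, chr5:87591612-87591861, minus strand: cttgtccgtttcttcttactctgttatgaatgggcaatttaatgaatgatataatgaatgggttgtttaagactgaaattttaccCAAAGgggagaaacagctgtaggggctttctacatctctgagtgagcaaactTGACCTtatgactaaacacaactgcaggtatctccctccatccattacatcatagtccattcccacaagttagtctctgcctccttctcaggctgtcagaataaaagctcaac
TTCNNNGAA was found in the Sult3a1 promoter alone among the 8, with its first base at -109 from the start, where it overlapped a CAAAG; the motif was in 7.02% of all 32841 promoters of the same length. AGGTCA was in the promoters of Sult1e1 (at -113) and Sult1b1 (at -123), both on the reverse strand, and in 14.0% of all promoters. CAAAG was in 5 of the 8, Sult1b1, Sult1c2, Sult1e1, Sult2a8 and Sult3a1, and in 48.6% of all promoters. A match is a run of letters in this window and does not show binding. The windows precede the RefSeq starts, which differ from the gene ends of GENCODE given above. For Sult2a8 the bases from 14446588 to 14446769 lay within the GENCODE gene, among them the CAAAG nearer the start. For Sult1c2 the whole window did, with its CAAAG matches. Shorter overlaps at Sult1a1, Sult1d1, Sult3a1 and Sult5a1 held no match. Which start is used in these livers was not tested.

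The libraries held between 46066381 and 60419223 counts, at which 3 counts, the lowest level told from 0 here, amounted to 0.0497 to 0.0651 CPM. This limit covers counting error only. Levels below are TMM-normalized CPM (CPM scaled by edgeR's trimmed mean of log ratios), with the SD of 3 livers. The transcript Xist was never under 213 in livers labelled female and never over 0.927 in those labelled male. All 6 hepatocyte markers examined, such as Alb and Ttr, were above 1 CPM in all groups, with sums between 81230 and 158500. The summed markers of Kupffer cells and macrophages were at 380 to 646 in females and 224 to 338 in males, those of endothelial cells at 188 to 275 and 147 to 208, and those of stellate cells at 213 to 332 and 171 to 228. Cholangiocyte markers summed to 18.9 to 51.6 and lymphocyte markers to 9.26 to 28.4.

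**Figure D1:**
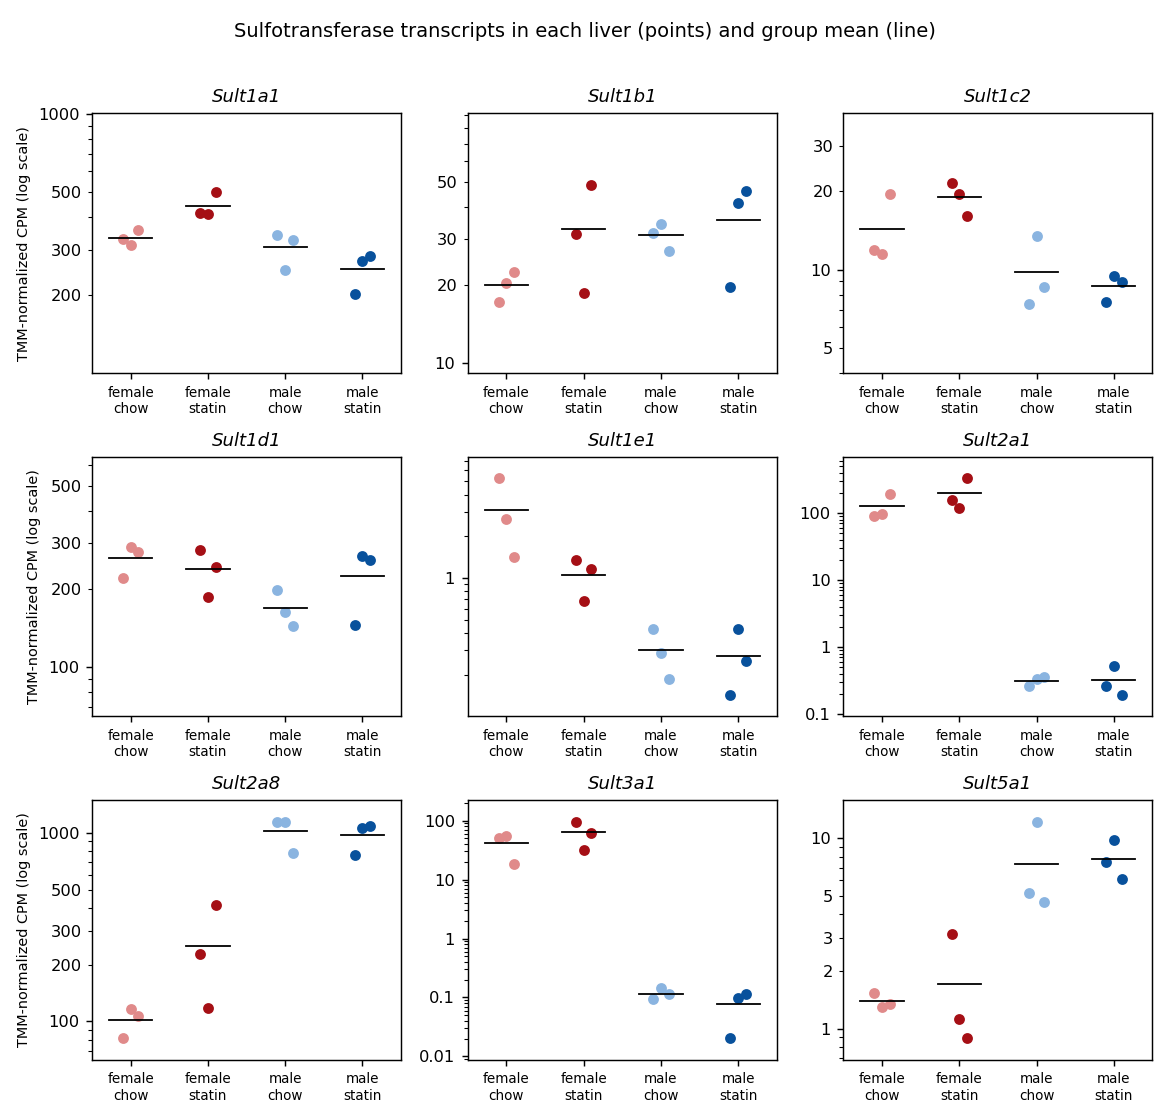
TMM-normalized CPM of each sulfotransferase gene on a log scale (vertical axis, a separate range in each panel) in the 4 groups (horizontal axis); points are livers and lines the means of 3. Sult2a1 and Sult3a1 were below 1 CPM in all males, whereas Sult2a8 lay at 759 or above in all males and at 412 or below in all females.

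To see how the family differed between the sexes without drug, female and male livers on chow were compared. Of the 8 members tested, 4 differed at an adjusted p-value under 0.05 by edgeR's quasi-likelihood test, 2 higher in females (Sult2a1 and Sult3a1) and 2 higher in males (Sult2a8 and Sult5a1). Among all 11968 genes 5.96% were called higher in females and 4.49% higher in males. With statin 6 of the 8 differed, 4 higher in females and 2 higher in males, against 4.38% and 1.90% of all genes. Sult2a1 and Sult3a1 passed the filter through the female livers alone, so these counts describe the members and are no evidence of a tendency of the family.

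Sult2a1, which sulfonates hydroxysteroids such as DHEA and bile acids, was nearly a female transcript. On chow its level was 91.2, 96.4 and 194.5 in the 3 female livers, and 0.261, 0.334 and 0.356 in the 3 male livers. On statin it was 156.4, 120.7 and 331.5 in females, and 0.266, 0.522 and 0.194 in males. The sexes lay far apart in both diets, and the male values rested on 10 to 27 reads a liver against 4779 to 16710 reads in females. The log2 fold change of females against males was 8.64 on chow (standard error 0.56, adjusted p = 9.11e-07, edgeR), a fold of 398, and 9.26 on statin (standard error 0.57, adjusted p = 5.85e-07, edgeR). The size depended on the fit, since limma on log2(CPM + 1), where the added 1 outweighs the male levels, gave 6.52 and 7.14.

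Sult3a1, which can sulfonate amines, showed the same sex difference at a lower level. Its level on chow was 50.6, 55.1 and 18.5 in females and 0.0932, 0.143 and 0.113 in males. On statin it was 96.7, 31.6 and 61.2 in females and 0.0205, 0.0966 and 0.117 in males. The male livers held 1 to 9 reads, close to the limit of 3 counts, and every female liver was above every male liver. On the log2 scale female livers were higher by 8.43 on chow (standard error 0.64, adjusted p = 4.75e-06, edgeR), or by 5.11 with limma on log2(CPM + 1). They were also higher on statin (adjusted p = 2.46e-06, edgeR), where no fold is given because a male liver had 1 read.

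Sult1e1, the estrogen sulfotransferase, was a low transcript in all groups. On CPM without TMM every female liver was above 1 except female statin replicate 2 (0.6455), and no male liver was, so it fell just below the filter. On chow it was at 5.25, 2.65 and 1.42 in females (275, 136 and 65 reads) and at 0.429, 0.286 and 0.188 in males (23, 18 and 10 reads). On statin its level was 1.34, 0.678 and 1.15 in females and 0.143, 0.425 and 0.253 in males. Females were above males without overlap in both diets. In the edgeR fit of all 26304 genes with any count, it was higher in females on chow (log2 fold change 3.34, standard error 0.44, adjusted p = 1.45e-06) and on statin (1.91, standard error 0.45, adjusted p = 0.00769). That fit called 3.27% of genes higher in females on chow and 2.67% on statin.

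Sult2a8, known for sulfonating bile acids in male mouse liver, ran the other way within the same gene cluster as Sult2a1. Male livers on chow were at 1143, 1146 and 777 and female livers on chow at 81.7, 115.7 and 106.8. On statin the males were at 759, 1063 and 1082 and the females at 226.8, 117.8 and 411.6. No female liver reached the level of any male liver in either diet, but the female statin livers were spread widely, with an SD of 149 around a mean of 252. The log2 fold change of females against males was -3.33 on chow (standard error 0.39, adjusted p = 2.03e-04, edgeR), a 10.1-fold higher level in males, and -1.94 on statin (standard error 0.36, adjusted p = 0.00780, edgeR), a 3.84-fold higher level in males. When only the statin groups were fitted, the second difference had an adjusted p of 0.0558.

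Sult5a1 was the other member higher in males and had far fewer reads. Its values on chow were 5.18, 12.2 and 4.65 in males and 1.55, 1.30 and 1.35 in females. On statin they were 7.52, 9.75 and 6.10 in males and 3.13, 1.13 and 0.893 in females. The groups did not overlap in either diet. The log2 fold change of females against males was -2.39 on chow (standard error 0.47, adjusted p = 0.00741, edgeR) and -2.18 on statin (standard error 0.47, adjusted p = 0.0163, edgeR). When each liver was left out it ranged from -2.64 to -1.81 on chow and from -2.95 to -1.87 on statin. The call on statin was lost without female statin replicate 2 (adjusted p = 0.0549), without male statin replicate 2 (adjusted p = 0.0634) and when only the statin groups were fitted (adjusted p = 0.0558).

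The remaining Sult1 genes differed less between the sexes. Sult1a1, the phenol sulfotransferase with the highest level per length in females, was at 333 ± 23.0 in female chow and 306 ± 49.2 in male chow (SD, n = 3), and the sexes overlapped (log2 fold change 0.12, standard error 0.17, adjusted p = 0.717, edgeR). On statin the females were at 415.9, 409.7 and 498.3 and the males at 202.3, 270.2 and 284.0, without overlap. The difference on statin passed the test (log2 fold change 0.81, standard error 0.17, adjusted p = 0.0136, edgeR), though not when only the statin groups were fitted (adjusted p = 0.0802). Sult1c2 was similar in this respect. It was at 11.9, 11.5 and 19.6 in female chow and at 7.38, 13.4 and 8.57 in male chow, where the sexes overlapped (adjusted p = 0.195, edgeR). On statin it was at 21.6, 19.5 and 16.1 in females and 7.48, 9.41 and 8.98 in males (log2 fold change 1.15, standard error 0.25, adjusted p = 0.0177, edgeR). The groups on statin did not overlap, but leaving out any of the 3 male statin livers raised the adjusted p to between 0.0543 and 0.0628. That a difference passed on statin and not on chow does not show that the diets differ in it; the test of that is the interaction below.

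Sult1d1, which acts on catecholamines such as dopamine, and Sult1b1, which acts on thyroid hormones and small phenols, are neighbours on chromosome 5. Sult1d1 on chow was at 220.7, 290.8 and 276.7 in females and 198.8, 163.6 and 143.6 in males. These groups did not overlap, yet the difference missed the threshold (log2 fold change 0.64, standard error 0.24, adjusted p = 0.109, edgeR). It passed when only the chow groups were fitted (adjusted p = 0.0215) and without male statin replicate 1 (adjusted p = 0.0404). Sult1b1 on chow was at 17.2, 20.4 and 22.4 in females and 31.7, 34.4 and 27.1 in males. Its groups were also separate, with males above, and the adjusted p was 0.268 (log2 fold change -0.63, standard error 0.33, edgeR), or 0.0118 when only the chow groups were fitted. On statin the sexes overlapped for both genes, with log2 fold changes of 0.09 for Sult1d1 and -0.12 for Sult1b1.

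Counted over all 9 genes on chow, the 3 female livers lay wholly above the 3 male livers for 4 genes and wholly below for 3, where 18.5% and 19.1% of the genes above the filter did so. On statin they lay above for 5 genes and below for 2, where 11.1% and 8.47% of the genes did so. Sult1e1, higher in females in both diets, is below the filter and so outside these shares. Sult2a1 and Sult3a1 passed the filter through the female livers alone, so these counts too are no evidence of a tendency of the family. Markers of other cell types also differed between the sexes as summed levels. On chow the female livers were above the male livers for Kupffer cells (428 to 524 against 224 to 338), endothelial cells (225 to 245 against 147 to 207), stellate cells (274 to 332 against 178 to 193) and cholangiocytes (30.7 to 48.1 against 26.2 to 30.2), and the lymphocyte sums overlapped. On statin they were above for Kupffer cells (380 to 646 against 224 to 274) and lymphocytes (21.7 to 28.4 against 9.26 to 13.9), and the endothelial, stellate and cholangiocyte sums overlapped. The hepatocyte sums overlapped on chow (100000 to 134200 against 81230 to 131100) and were higher in every female liver on statin (117400 to 158500 against 84490 to 99360). Most of this sum was Alb, with means of 117600 in female statin and 65480 in male statin. The means of Ttr and Apoa1 on statin were also higher in females. Those of Cyp2e1 (5524 against 7991), Cps1 (4107 against 4217) and Serpina1a (1454 against 1511) were lower in females. All genes of the hepatocyte, Kupffer, endothelial and stellate lists were above 1 CPM in each group, of the 5 cholangiocyte genes between 2 and 4 were, and of the 5 lymphocyte genes 3 were in female statin and 1 in each other group; none was at 0. The lymphocyte sums were mostly Ptprc and the cholangiocyte sums mostly Spp1 (means of 32.9 in female chow and 22.7 in male chow). Sox9 of the cholangiocyte list was at 3.27 in female chow and 3.11 in male chow. The part of the marker genes in the sex differences was not tested.

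**Figure D2:**
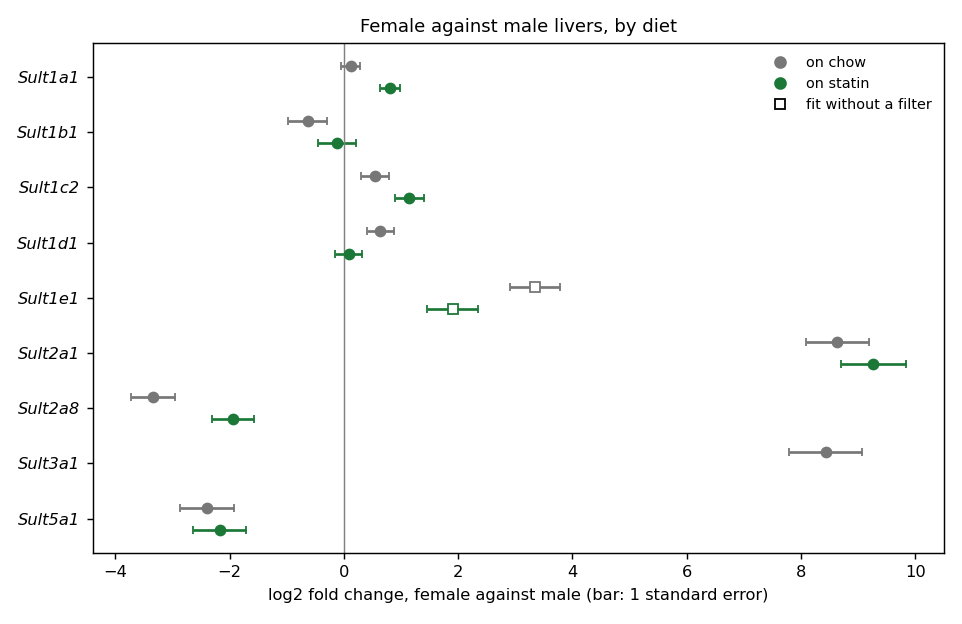
Log2 fold change of female against male livers (horizontal axis; bars are 1 standard error) for each gene (vertical axis) on chow in grey and on statin in green; open squares for Sult1e1 come from the fit without a filter. Sult3a1 on statin is not drawn, since a male liver had 1 read. By edgeR Sult2a1 in both diets and Sult3a1 on chow lay above 8, and Sult2a8 and Sult5a1 below -1.9 in both diets; limma on log2(CPM + 1) gave 5.11 to 7.14 for the first pair and -1.69 and -1.76 for Sult5a1.

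Levels of different genes were compared per kb of exon. In female chow livers the order was Sult1a1 (221 CPM per kb), Sult2a1 (125), Sult1d1 (107), Sult3a1 (35.8), Sult2a8 (30.9), Sult1c2 (7.76), Sult1b1 (7.20), Sult1e1 (2.50) and Sult5a1 (0.317). The livers of Sult2a1 and Sult1d1, of Sult3a1 and Sult2a8, and of Sult1c2 and Sult1b1 overlapped, so the order within these pairs was not larger than their spread. In male chow livers it was Sult2a8 (311 CPM per kb), Sult1a1 (203), Sult1d1 (68.6), Sult1b1 (11.2), Sult1c2 (5.30), Sult5a1 (1.67), Sult2a1 (0.311), Sult1e1 (0.242) and Sult3a1 (0.101), with overlap of Sult2a1 and Sult1e1 alone. Among these 9 genes Sult2a8 thus headed the order in males and stood with Sult3a1 below Sult1a1, Sult2a1 and Sult1d1 in females, while Sult2a1 stood with Sult1d1 next to Sult1a1 in females and among the lowest genes in males. Outside the 9, Sult2a2 was at 210, 218 and 338 CPM per kb in female chow livers, in the range of Sult1a1 and above. On statin the male order was unchanged, with Sult2a8 at 295 and Sult1a1 at 167. In females on statin Sult1a1 was at 293, Sult2a1 at 199, Sult1d1 at 96.6, Sult2a8 at 76.8, Sult3a1 at 54.6, Sult1b1 at 11.8, Sult1c2 at 10.3, Sult1e1 at 0.851 and Sult5a1 at 0.389. There the overlapping neighbours were Sult1a1 and Sult2a1, the run from Sult1d1 through Sult2a8 to Sult3a1, Sult1b1 and Sult1c2, and Sult1e1 and Sult5a1.

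The 9 genes together summed in females to 483 to 609 CPM per kb on chow and 548 to 960 on statin, and in males to 527 to 674 on chow and 438 to 646 on statin, ranges that overlapped. The makeup of the sum differed by sex. Sult2a8 made up 51.4% of the sum in male chow and 5.76% in female chow, whereas Sult2a1 made up 0.0528% and 22.7%. Sult1a1 took 34.1% of the sum in male chow and 41.3% in female chow. In female statin the share of Sult2a8 was 9.73% and that of Sult1d1 13.4%, against 20.0% for Sult1d1 in female chow.

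To place Sult2a1 and Sult2a8 among their neighbours, the other genes of the family were described by level. Of 12 other cytosolic sulfotransferase genes 5 were above the filter, and on chow 4 of them were higher in females and 1 higher in males by edgeR, where 5.96% and 4.49% of all genes were. The 4 passed the filter through the female livers alone, their male livers all lying below 0.4 CPM, so a higher female level was a condition of their being tested and the count supports nothing. Sult2a2 was at 155.2, 161.4 and 250.5 in female chow livers and 0.205, 0.302 and 0.206 in male chow livers (log2 fold change 9.61, adjusted p = 4.42e-09, edgeR). Sult2a3 was at 26.5 to 93.5 in female chow and 0.0188 to 0.0953 in male chow (adjusted p = 7.67e-06, edgeR). Sult2a5 was at 6.17 to 19.4 in female chow and had 1 read in 1 male chow liver and 0 in the others (adjusted p = 5.62e-05, edgeR). Sult3a2, the paralog of Sult3a1, was at 1.15 to 4.69 in female chow and had 0 reads in all 3 male chow livers (adjusted p = 8.20e-04, edgeR). The males of these last 3 genes were at or near the limit of counting, so no fold is given for them. All 4 were called higher in females on statin as well.

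Sult2a7, the neighbour of Sult2a8 at the end of the cluster, shared its direction. It was at 0.954, 0.798 and 1.09 in female chow and 4.98, 2.94 and 2.93 in male chow (log2 fold change -1.93, standard error 0.56, adjusted p = 0.0457, edgeR). All male livers were at 2.09 CPM or above, enough to pass the filter alone, whereas some female livers were below 1 CPM. The call is therefore no evidence of a tendency of the cluster. On statin the sexes overlapped and the log2 fold change was -0.63 (adjusted p = 0.601, edgeR). Of the other 7 family genes, below the filter, Sult2a4 had 6 to 22 reads in each female liver and 0 in every male liver, and Sult4a1 was at 0.566 to 1.07 in female chow and at most 0.111 in male chow. Sult1c1 and Sult6b1 were at 0 reads in all 12 livers, and Sult2a6, Sult2b1 and Sult6b2 had at most 4 reads in a liver.

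**Figure D3:**
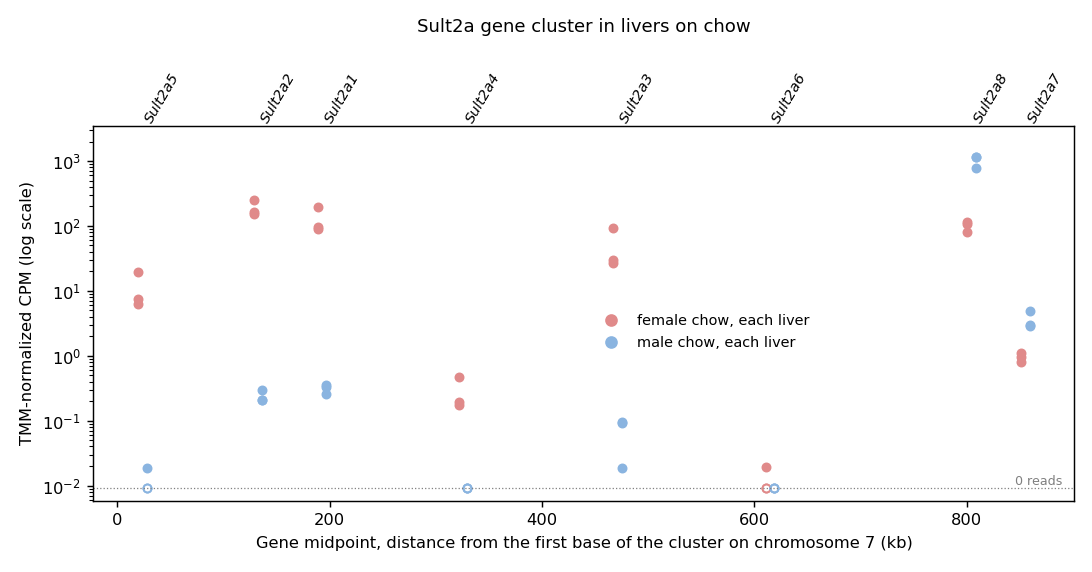
TMM-normalized CPM on a log scale (vertical axis) of the 8 Sult2a genes in each chow liver, placed by the distance in kb of the gene midpoint from the start of the cluster (horizontal axis); the sexes are drawn side by side and open circles on the dotted line mark 0 reads. Sult2a8 and Sult2a7 at the right end were higher in males, and Sult2a5, Sult2a2, Sult2a1 and Sult2a3 higher in females.

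To ask whether simvastatin moved these genes, statin and chow livers were compared within each sex. In females 0 of the 8 members tested passed an adjusted p of 0.05 by edgeR, where 0.100% of all genes did; 2 members, Sult2a8 and Sult1a1, had an unadjusted p under 0.05, where 10.5% of all genes did. The median log2 fold change of the 8 was 0.511, with 7 of 8 positive, beside a median of 0.0134 over all genes tested. The 8 were measured in the same livers and some deviated together, so this count is no evidence of a tendency of the family. The statin livers lay wholly above the chow livers for Sult1a1 and Sult2a8 and wholly below for Sult1e1, and overlapped for the other 6. Among genes above the filter, which leave out Sult1e1, 6.04% lay wholly above and 5.97% wholly below.

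Sult2a8 had the largest positive log2 fold change of the 8 with statin in females. Its mean was 101 ± 17.6 in chow and 252 ± 149 in statin (SD, n = 3), the latter from livers at 226.8, 117.8 and 411.6. The second of these was barely above the highest chow liver, at 115.7, and on CPM without TMM it was below it, at 112.2 against 118.6. On the log2 scale the change was 1.31 (standard error 0.36, unadjusted p = 0.00313, adjusted p = 0.196, edgeR). It passed with DESeq2 (adjusted p = 0.0130), in the edgeR fit without a filter (adjusted p = 0.0082) and without female statin replicate 2 (log2 fold change 1.65, adjusted p = 0.0304), so the call rests on the fit. Without female statin replicate 3, the highest liver, the log2 fold change was 0.78 (adjusted p = 0.604, edgeR).

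Sult1a1 was separate between the groups by a wider margin and with a smaller change. The chow livers were at 328.8, 312.1 and 357.6 and the statin livers at 415.9, 409.7 and 498.3, each above every chow liver. The log2 fold change was 0.41 (standard error 0.17, unadjusted p = 0.0307, adjusted p = 0.409, edgeR). Sult1b1, at 17.2, 20.4 and 22.4 in chow and 31.3, 18.7 and 48.7 in statin, overlapped between the groups (log2 fold change 0.72, standard error 0.33, adjusted p = 0.487, edgeR; 0.34 to 1.00 when each liver was left out). The same female statin liver, replicate 2, was lowest among the statin livers for Sult1b1, Sult2a1, Sult2a8, Sult3a1, Sult1d1, Sult1a1 and Sult1e1, and replicate 3 was highest for Sult1a1, Sult1b1, Sult2a1 and Sult2a8.

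The other members had log2 fold changes of 0.67 for Sult2a1 (standard error 0.38, adjusted p = 0.608), 0.61 for Sult3a1 (adjusted p = 0.703), 0.41 for Sult1c2 (adjusted p = 0.650), 0.30 for Sult5a1 (adjusted p = 0.945) and -0.15 for Sult1d1 (adjusted p = 0.946), all by edgeR. Their chow and statin livers overlapped, and single livers moved the values, to between 0.14 and 1.11 for Sult2a1 and between 0.17 and 0.93 for Sult3a1 when each liver was left out. Sult1e1 went the other way. Its chow livers were at 5.25, 2.65 and 1.42 and its statin livers at 1.34, 0.678 and 1.15, so that the highest statin liver was just under the lowest chow liver. The fit without a filter gave -1.57 on the log2 scale (standard error 0.40, adjusted p = 0.0581, edgeR), where 0.563% of genes passed an adjusted p of 0.05. An exact permutation test of log2(CPM + 1), two-sided, could not pass 0.05 with 3 against 3 livers; its p-value was 0.1, the smallest that 20 splits allow, for Sult1e1 and likewise for Sult1a1 and Sult2a8 in females. The summed lymphocyte markers were at 21.7 to 28.4 in female statin and 14.9 to 18.6 in female chow, with 3 and 1 of the 5 genes above 1 CPM and none at 0. Most of these sums was Ptprc, with means of 20.1 in female statin and 14.4 in female chow. The part of these markers in the values above was not tested.

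In males 0 of the 8 members passed an adjusted p of 0.05 with statin by edgeR, where 0% of all genes did, and 0 had an unadjusted p under 0.05, where 1.96% of all genes did. DESeq2 also called 0 members. Statin and chow livers overlapped for all 9 genes; 7.94% of genes above the filter had groups that did not overlap. The log2 fold changes were 0.41 for Sult1d1 (standard error 0.24), 0.20 for Sult1b1, 0.08 for Sult5a1, 0.05 for Sult2a1, -0.08 for Sult2a8, -0.18 for Sult1c2 and -0.28 for Sult1a1 (standard error 0.17). No fold is given for Sult3a1 in males, whose livers held 1 to 9 reads. Sult2a8 in males was at 1022 ± 212 in chow and 968 ± 181 in statin (SD, n = 3), a difference smaller than either SD. Sult1d1 in males was at 198.8, 163.6 and 143.6 in chow and 145.3, 267.6 and 257.8 in statin. The first statin liver was among the chow values for Sult1d1, and it was the lowest of the 3 for Sult1a1, Sult1b1, Sult1c2, Sult1d1, Sult1e1, Sult2a8 and Sult3a1.

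**Figure D4:**
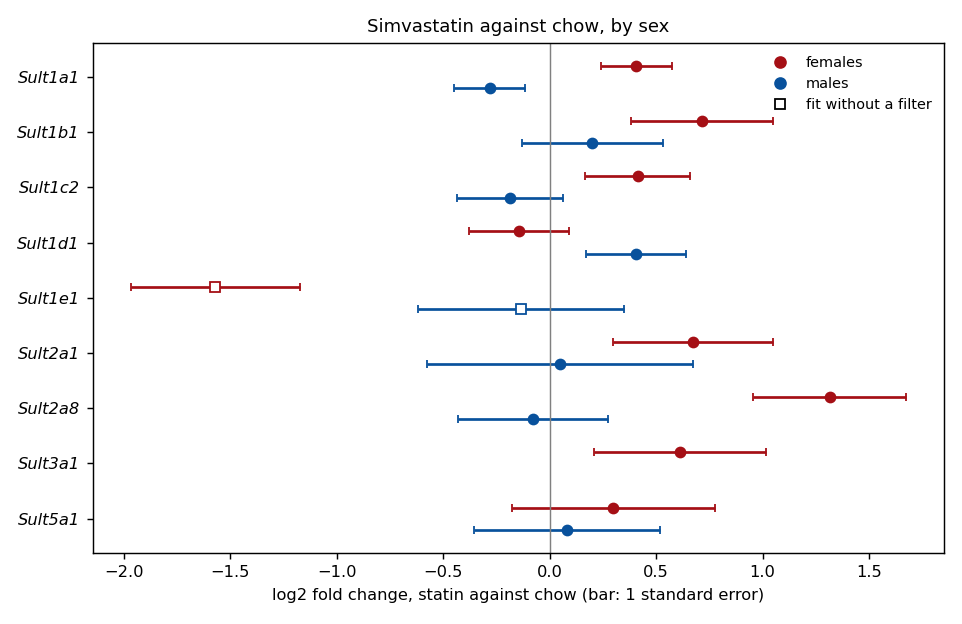
Log2 fold change of statin against chow (horizontal axis; bars are 1 standard error) for each gene (vertical axis) in females in red and males in blue; open squares for Sult1e1 come from the fit without a filter. In females 7 of the 8 filtered genes lay above 0, from 0.30 to 1.31, and in males the genes drawn from the same fit ranged from -0.28 to 0.41, with no value past the threshold; Sult3a1 in males is not drawn, since a liver had 1 read.

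The interaction of sex and diet was tested for each gene, to compare the female with the male response. By edgeR 0 of the 8 members passed an adjusted p of 0.05, as did 0% of all genes, and 2 members had an unadjusted p under 0.05, where 8.01% of all genes did. DESeq2 also called 0 members. The female response exceeded the male response by 1.39 for Sult2a8 (standard error 0.50, unadjusted p = 0.0163, adjusted p = 0.473, edgeR) and by 0.69 for Sult1a1 (standard error 0.24, unadjusted p = 0.0127, adjusted p = 0.440, edgeR) on the log2 scale. When each liver was left out, the first ranged from 0.85 to 1.72 and the second from 0.55 to 0.81. For Sult1e1 in the fit without a filter the interaction was -1.43 (unadjusted p = 0.0282, adjusted p = 0.75, edgeR).

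The enzymes can act only as far as sulfate and PAPS are supplied, so 17 genes of this supply were counted, of which 15 were tested. With statin 0 of them passed by edgeR in either sex, with 5 in females and 2 in males at an unadjusted p under 0.05, where 10.5% and 1.96% of all genes were. Papss1, which makes PAPS from sulfate and ATP, was at 15.4 ± 2.35 in female chow and 11.3 ± 2.37 in female statin (SD, n = 3; log2 fold change -0.45, adjusted p = 0.350, edgeR). In males it was at 12.3 ± 1.52 in chow and 9.15 ± 0.356 in statin (SD, n = 3; log2 fold change -0.43, adjusted p = 1.00, edgeR). Papss2, the form with the higher level here, was at 307 ± 71.1 on chow and 276 ± 72.1 on statin in females, and at 203 ± 19.3 on chow and 218 ± 24.2 on statin in males (SD, n = 3). Its log2 fold change of females against males on chow was 0.60 (adjusted p = 0.0834, edgeR). Between the sexes on chow 1 of the 15 was called, where 4.49% of all genes were lower in females. It was Csad, which makes hypotaurine from cysteine sulfinate and so draws on the sulfur that could become sulfate (log2 fold change -2.31, adjusted p = 0.00386, edgeR). On statin 0 of the 15 were called between the sexes, with 2 at an unadjusted p under 0.05, where 19.4% of all genes were.

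For the lists that follow, the shares of all genes called higher and lower in females are again 5.96% and 4.49% on chow and 4.38% and 1.90% on statin. Of 8 genes of desulfation and Golgi sulfation 7 were tested, and Arsa, the lysosomal arylsulfatase A, was the one called, lower in females on chow (log2 fold change -1.28, adjusted p = 0.0176, edgeR) and on statin (-1.64, adjusted p = 0.00684, edgeR). Of 12 receptors and factors known to regulate sulfotransferases 11 were tested, and 0 passed with statin in either sex. Esr1, the estrogen receptor alpha, was higher in females on statin (log2 fold change 1.51, adjusted p = 0.0276, edgeR) and had an adjusted p of 0.0517 on chow (1.21). Nr1i3, the receptor CAR, was named after its values were seen. It was at 128 ± 24.1 in female chow and 295 ± 147 in female statin (SD, n = 3), which on the log2 scale is a difference of 1.21 (edgeR, adjusted p = 0.177). UDP-glucuronosyltransferases, which serve many of the same substrates, were tested at 14 of 19 genes, and 0 passed with statin in either sex. On chow 1 was higher in females (Ugt1a5, log2 fold change 2.36, adjusted p = 0.00543) and 3 were lower by edgeR, Ugt2b1 (-1.50, adjusted p = 0.00102), Ugt3a1 (-1.14, adjusted p = 0.00287) and Ugt2b34 (-0.57, adjusted p = 0.0499), the last named to complete the count. On statin Ugt1a5 was higher in females (1.75, adjusted p = 0.0320) and Ugt2b1 lower (-1.60, adjusted p = 7.31e-04, edgeR).

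How the genes varied among livers of the same group was described by each liver's deviation from its group mean of log2(CPM + 1). Across the 12 livers, in each of which the genes share library, depth and dissection, Sult1b1 and Sult2a8 deviated together (Pearson's r = 0.884), as did Sult1b1 and Sult1d1 (0.790) and, less closely, Sult2a1 and Sult2a8 (0.694). The lowest value was that of Sult1a1 and Sult5a1 (-0.561). Among genes outside the 9, the most alike in its deviations was Sult3a2 for Sult3a1 (r = 0.989), Tmem42 for Sult1b1 (0.987), Gm10433 for Sult2a8 (0.983), Thy1 for Sult1c2 (0.981), Ccnh for Sult1d1 (0.981), Hao2 for Sult2a1 (0.975), Sh3d21 for Sult5a1 (0.944) and Ccdc151 for Sult1a1 (0.939). These were the highest of all genes above the filter over 12 livers and are given as a description. For Sult3a1 and Sult2a1 they rest largely on the 6 female livers, since the male livers lie close to 0 on this scale and Sult3a2 had 0 reads in 5 of 6 males. The ratio of CPM, not corrected for gene length, of Sult3a1 to Sult3a2 was between 10.8 and 16.1 in the 6 female livers, a narrow range beside the spread of Sult3a1 itself, from 18.5 to 96.7. For Sult2a1 to Sult2a8 the same uncorrected ratio, from exons of 1020 and 3284 bases, was between 0.690 and 1.82 in females and between 1.80e-04 and 4.91e-04 in males.

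**Figure D5:**
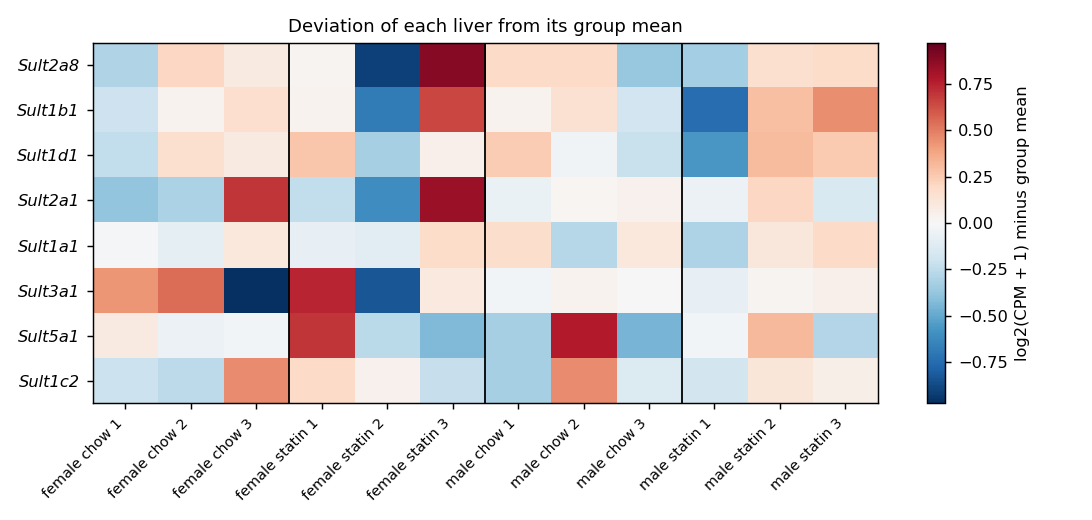
Deviation of each liver (horizontal axis, 3 per group, groups separated by lines) from its group mean of log2(CPM + 1) for the 8 filtered genes (vertical axis); red is above and blue below the mean. Female statin replicate 2 was below its group mean and replicate 3 above it for Sult2a8, Sult1b1 and Sult2a1, and male statin replicate 1 was below it for Sult2a8, Sult1b1 and Sult1d1.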

How the data were processed

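Poly(A) RNA of 12 livers was made into strand-specific libraries, read from both ends at 50 bases and aligned to GRCm38; the submitters' processing notes name STAR 2.4.1a, HTSeq and edgeR 3.28.1. The authors deposited CPM values for 48526 genes and a table of counts of 11968 genes described as TMM-normalized. All values of that table were whole, and 0 departed from reads worked back from CPM, of which 100% came out whole within 0.01, so the deposited counts were treated as raw. They were fitted with edgeR 4.0.16 (R 4.3.3; quasi-likelihood, TMM, 4 groups in one fit, common dispersion 0.0380), two-sided, with Benjamini-Hochberg adjustment over 11968 genes. Standard errors were derived from the fold change and its F statistic. p-values measure the spread between mice. The script was tested on simulated data. No liver was a copy of another (between pairs, chi-square over its degrees of freedom was at least 46.9). Symbols matched 99.8% of the genes in the count table and 99.0% of those in the CPM table. Positions and exon lengths are from GENCODE vM21, and the authors name another release.

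The genes and lists were chosen with earlier results of these data known. Named were all 9 members, the other family genes by level, the called list genes with the 3 smallest p-values per contrast, Papss1 and Papss2, and the gene most alike to each member. Nr1i3 and Ugt2b34 were added after their values were seen. Livers that share a replicate number in the labels came from separate mice. Alternatives were DESeq2 1.42.0, limma 3.58.1 with a trend on log2(CPM + 1), DESeq2's size factors, library size alone, no filter, a filter of 10 CPM in 3 livers, fitting only the groups compared, a replicate block, an offset for transcript length, and leaving out each liver.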

Additional observations from a re-analysis of the deposited data

How the results depend on the processing

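Over 347 recomputed log2 fold changes of the members under settings other than leaving out a liver, 338 kept their direction and their side of the threshold. With statin in females 0 of 8 members were called in the edgeR fit, 1 of 8 with DESeq2 and 1 of 9 without a filter, in both cases Sult2a8, and between 0 and 1 when each liver was left out, the 1 being Sult2a8 without female statin replicate 2. The count that differed between the sexes on statin was 6 and became 3 when only the groups compared were fitted. Sult1d1 between the sexes on statin turned to -0.0041 with library size alone, and the interaction of Sult5a1 to -0.0728 with limma. The causes were not tested. With limma on log2(CPM + 1) the size fell for Sult3a1 between the sexes, to 5.11 on chow, and for Sult2a1, to 6.52 on chow and 7.14 on statin, with the calls kept. Leaving out each liver turned the sign of values near 0, with log2 fold changes from -0.00656 to 0.208 for Sult1a1 between the sexes on chow, -0.518 to 0.141 for Sult1b1 and -0.145 to 0.238 for Sult1d1 between the sexes on statin, -0.0291 to 0.492 for Sult1b1, -0.351 to 0.113 for Sult1c2, -0.463 to 0.317 for Sult2a1, -0.242 to 0.0694 for Sult2a8 and -0.162 to 0.664 for Sult5a1 with statin in males, -0.287 to 0.00103 for Sult1d1 and -0.458 to 0.617 for Sult5a1 with statin in females, and -0.549 to 0.526 for the interaction of Sult5a1. None of these was past the threshold.

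The count over all genes with statin in females was 12, and 270 with DESeq2, 148 without a filter, 6 with the stricter filter, 0 when only the groups compared were fitted, 5 with the block and 0 to 75 when each liver was left out. For the interaction it was 0, and 130 with DESeq2 and 103 without a filter, and up to 14 without a liver; in males it was 0, and 4 with DESeq2. Between the sexes on chow it was 1250, and 1946 with DESeq2, 2151 with only the groups compared and 635 to 1586 without a liver; on statin it was 751, and 1284, 292 and 378 to 743, and 432 with the stricter filter. With library size alone the split was 565 higher and 653 lower in females on chow, beside 713 and 537, and 354 and 327 on statin, beside 524 and 227, where the median over all genes moved to -0.104; no called member changed direction. With the replicate number as a block 0 members were called with statin in females, 0 in males, 0 in the interaction, 4 between the sexes on chow and 6 on statin, as without it. The numbers gave no sign of pairing the livers. The 18 same-numbered pairs had a mean correlation of deviations of -0.108 (from -0.746 to 0.675), against 0.0576 for other pairs (from -0.681 to 0.754). Since deviations were taken from group means, these mean correlations are tied to each other and cannot settle the question. The few reads of Sult2a1, Sult3a1 and Sult1e1 in males limit how precisely their sex differences can be given.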
